A study of Homo sapiens with 2 samples.

Results

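Shores and shelves are the flanks of CpG islands: the shore is the first 2 kb outside an island edge, and the shelf is the 2 kb beyond it. They were described here in 2 human acute myeloid leukemia (AML) cell lines profiled by whole-genome bisulfite sequencing, OCI-AML3, which carries a heterozygous missense DNMT3A mutation, and AML5, recorded in its label as OCI-AML5, which is wild type for DNMT3A. Both are established lines grown as untreated cultures in the same medium with serum, and each was sequenced as 1 library with no replicates, so the lines differ in donor of origin and in every other mutation as well as in DNMT3A, and these cannot be told apart. Bisulfite turns unmethylated cytosine into uracil, which is read as thymine, and the methylation level of a CpG dinucleotide is therefore the share of its reads that still show cytosine.

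Members were found from CpG positions alone. A CpG was dense when more than 40 others lay within 500 bp, dense CpGs at most 200 bp apart were joined, and runs of at least 20 formed an island. This gave 29747 islands on the 22 autosomes, typically 1133 bp long (median) and holding a median of 78 dense CpGs. Of the 23598449 autosomal CpGs with more than 5 reads in both lines, 1675146 (7.10%) lay in shores and 1112972 (4.72%) in shelves, 2788118 together. A further 124038 shore and 86050 shelf CpGs were listed but had too few reads. Islands held 2773024 CpGs and 18037307 lay beyond 4 kb. Mean depth was 47.0 reads per shore CpG in OCI-AML3 and 40.5 in AML5, and 43.1 and 37.8 in shelves.

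Most of the human genome is CpG-poor and methylated, whereas CpG islands at promoters are usually kept unmethylated. Shores and shelves carry the passage from the one state to the other, and shores are known as places where methylation differs between tissues and between normal and cancer cells. DNMT3A is a de novo methyltransferase, which places methyl groups on cytosines that lack them, and it is among the genes most often mutated in AML.

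The changes described below can be seen in the reference sequence and calls of 6 windows of 240 bp, shown because most of their CpGs were near the opposite ends of the scale in the 2 lines. All are on the + strand of GRCh37, all lie within the annotated span of the genes named, and the capitals mark the CpG dinucleotides. Exons and introns were not told apart. The first 3 are shores unmethylated in OCI-AML3 and methylated in AML5. They flank islands assigned to HOXB4 and HOXA9, homeobox genes that act in blood stem cells and in leukemia, and to MRC2. MRC2 encodes a collagen receptor. The next is a shore of PLD6, a mitochondrial phospholipase, and the next a shelf of IRF8, a transcription factor of the myeloid lineage. The last, a shore of ZNRF1, an E3 ubiquitin ligase, had the opposite state in each line.
HOXB4 shore (chr17:46651856-46652095, in HOXB3): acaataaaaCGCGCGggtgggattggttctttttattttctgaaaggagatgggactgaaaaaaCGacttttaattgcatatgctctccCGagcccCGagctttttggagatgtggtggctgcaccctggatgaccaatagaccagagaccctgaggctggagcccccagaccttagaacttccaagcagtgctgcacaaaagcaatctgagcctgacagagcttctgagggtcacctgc
HOXA9 shore (chr7:27215548-27215787, in HOXA10): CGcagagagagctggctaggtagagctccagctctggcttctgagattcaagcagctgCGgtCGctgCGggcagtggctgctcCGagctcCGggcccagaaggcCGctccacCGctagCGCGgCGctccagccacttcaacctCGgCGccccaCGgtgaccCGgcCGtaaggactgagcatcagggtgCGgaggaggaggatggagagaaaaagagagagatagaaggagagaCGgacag
MRC2 shore (chr17:60706195-60706434, in MRC2): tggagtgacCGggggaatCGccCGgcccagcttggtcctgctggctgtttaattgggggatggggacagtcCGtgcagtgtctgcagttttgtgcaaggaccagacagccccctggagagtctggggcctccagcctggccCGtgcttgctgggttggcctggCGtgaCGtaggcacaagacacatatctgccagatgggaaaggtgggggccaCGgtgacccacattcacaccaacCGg
PLD6 shore (chr17:17107263-17107502, in PLD6 and MPRIP): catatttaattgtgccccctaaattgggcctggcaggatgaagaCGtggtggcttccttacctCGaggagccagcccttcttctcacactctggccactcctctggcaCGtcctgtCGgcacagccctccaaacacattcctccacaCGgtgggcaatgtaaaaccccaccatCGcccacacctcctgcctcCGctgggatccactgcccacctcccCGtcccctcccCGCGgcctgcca
IRF8 shelf (chr16:85935982-85936221, in IRF8): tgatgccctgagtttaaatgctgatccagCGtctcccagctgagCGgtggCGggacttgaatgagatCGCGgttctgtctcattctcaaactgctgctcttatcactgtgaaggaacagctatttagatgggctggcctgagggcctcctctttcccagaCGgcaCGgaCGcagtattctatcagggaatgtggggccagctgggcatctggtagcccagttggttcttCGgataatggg
ZNRF1 shore (chr16:75034531-75034770, in ZNRF1): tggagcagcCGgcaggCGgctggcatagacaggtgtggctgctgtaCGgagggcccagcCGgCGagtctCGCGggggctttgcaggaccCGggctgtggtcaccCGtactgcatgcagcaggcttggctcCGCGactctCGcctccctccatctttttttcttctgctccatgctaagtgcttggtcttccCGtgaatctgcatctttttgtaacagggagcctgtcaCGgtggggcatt

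In the HOXB4 window the 6 CpGs averaged 1.67% in OCI-AML3 against 96.5% in AML5. The HOXA9 window held 18 CpGs, averaging 0.362% in OCI-AML3 against 92.8% in AML5, where the lowest CpG stood at 79.5%. The 9 CpGs of the MRC2 window had means of 0.350% and 89.9%. In each of these windows the lines did not overlap at any CpG. The PLD6 window, with 10 CpGs, averaged 1.19% in OCI-AML3 against 81.6% in AML5, where its CpGs ranged from 43.8% to 94.1%. In the IRF8 window, 2.8 to 3.0 kb outside the island, the 9 CpGs had a mean level of 94.6% in AML5, and no methylated call was seen in OCI-AML3 at a mean of 43.8 reads per CpG. The 14 CpGs of the ZNRF1 window averaged 90.3% in OCI-AML3 against 7.38% in AML5.

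Over all shore CpGs OCI-AML3 averaged a methylation level of 70.8% and AML5 one of 79.0%, which differ by -8.21 percentage points (OCI-AML3 minus AML5 throughout). Over shelf CpGs the levels were 77.0% and 84.9%, which differ by -7.92 points. For shores, the Wilson 95% interval on the share of all calls was 71.29% to 71.31% (OCI-AML3) and 79.21% to 79.23% (AML5). For shelves it was 77.34% to 77.37% and 85.09% to 85.12%. These intervals cover counting error only, since calls of the same read are not independent and no culture was sequenced again. The same difference was -8.36 points beyond 4 kb and -3.39 points inside islands. In the mean over CpGs the shores and shelves thus stood with the bulk of the genome and not with the islands. As a share of all calls, islands stood at 36.3% in OCI-AML3 and 41.6% in AML5, and CpGs beyond 4 kb at 73.1% and 80.5%. By that measure the gap was wider inside islands and narrower beyond 4 kb.

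The decrease was spread unevenly over CpGs. Median levels were high in both lines, 89.2% and 93.0% in shores and 91.2% and 94.0% in shelves. The share of shore CpGs under a level of 0.2 was 15.8% in OCI-AML3 against 9.88% in AML5, and in shelves it was 9.82% against 4.94%. Hypermethylated CpGs, with a level above 0.66, made up 69.0% and 78.9% of shore CpGs and 76.3% and 86.2% of shelf CpGs. OCI-AML3 thus held more CpGs at the unmethylated end in both zones.

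By Fisher's exact test on the calls of each CpG, two-sided and with Benjamini-Hochberg adjustment at 0.05 over all nuclear CpGs tested, 273798 shore CpGs (16.3%) were lower and 63495 (3.79%) higher in OCI-AML3. Over all autosomal CpGs 14.8% were lower and 3.87% higher. In shelves 161066 (14.5%) were lower and 30255 (2.72%) higher. The shares in shores and shelves were near those of the autosomes, and the test compares the reads of 2 libraries, not the DNMT3A states. The share called rose with depth. Among shore CpGs whose shallower line had 6 to 9 reads, 7.46% were called lower, and among those with at least 30 reads in both lines 18.6% were, while the mean difference was -9.58 and -7.87 points.

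Neighbouring bases moved with the size of the decrease. Shore CpGs with A or T on both sides averaged 60.6% (OCI-AML3) and 71.9% (AML5), which differ by -11.3 points. With G or C on both sides the means were 76.1% and 82.3%, a difference of -6.22 points. In shelves the differences were -11.6 and -5.49 points, and beyond 4 kb -10.996 and -5.75 points, so this pattern was not particular to the flanks of islands. It was present in all 6 strata of local CpG density compared in shores. In shores with 0 to 4 other CpGs within 500 bp the difference was -13.8 points for CpGs between A or T and -6.52 points for those between G or C. With 30 to 40 others it was -10.1 and -6.28 points.

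CpG density itself gave the other gradient. Shore CpGs with 0 to 4 others within 500 bp differed by -11.1 points between the lines, and those with 30 to 40 others by -7.61 points. At 20 to 29 others the difference was -8.25 points in shores, -6.97 in shelves and -6.42 beyond 4 kb, and at 30 to 40 others it was -7.61, -7.12 and -6.02 points. At 0 to 4 others shores and shelves differed by -11.1 and -11.6 points and CpGs beyond 4 kb by -10.99 points. At 41 or more others it was -6.83, -7.09 and -6.34 points in the same order of zones, so shores had the widest difference in only some of the density strata.

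Distance from the island gave a profile with most of its structure in the first 1 kb. Over all islands the level rose from 60.8% in OCI-AML3 and 68.6% in AML5 in the first 250 bp to 76.4% and 84.3% at 1750 to 2000 bp. The difference was widest at 250 to 500 bp, at -8.92 points, and between -7.80 and -8.11 points in every 250 bp bin of the shelf. The level made no step at the 2 kb limit: the last 100 bp of shores had means of 76.5% and 84.4%, and the first 100 bp of shelves 76.8% and 84.6%. At the 4 kb limit the values inside were 77.4% and 85.2% and those just outside 77.2% and 85.2%.

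The profile depended on the state of the island itself. Of the 29747 islands, 10087 had a mean level below 0.2 in both lines and 7844 of these were promoter islands, which cover or lie within 2 kb of a protein-coding transcription start site (TSS). Another 11665 had a level above 0.66 in both lines and 6330 of these lay in gene bodies. Around unmethylated islands the first 250 bp stood at 32.4% in OCI-AML3 and 43.1% in AML5, and at 250 to 500 bp the levels were 52.5% and 64.8%, the widest gap at -12.4 points. By 1750 to 2000 bp the gap was -7.29 points, and at the outer end of the shelf it was -6.53 points. Around methylated islands the order was the reverse, with -5.23 points in the first 250 bp and -7.84 points at the outer end of the shelf. The islands themselves differed by -2.09 points where unmethylated and by -2.04 points where methylated in both lines. Their levels were used to form these classes, which limits how far they could differ. The widest difference around unmethylated islands thus lay at 250 to 500 bp, while the level was still climbing. The bins on either side had -10.7 and -11.0 points.

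**Figure D1:**
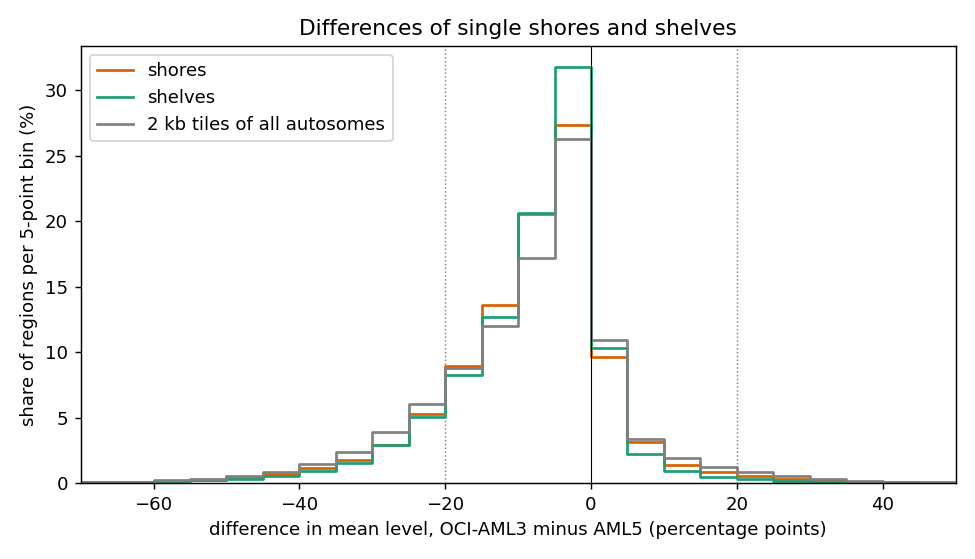
Share of single shores (orange), shelves (green) and 2 kb tiles of all autosomes (grey) in each 5-point bin of the difference in mean level, OCI-AML3 minus AML5 (percentage points), for regions with at least 10 CpGs. Dotted lines mark 20 points in either direction; 13.1% of shores lie at or beyond the left line and 1.52% at or beyond the right line.

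A single shore or shelf was taken as 1 side of 1 island, and those with at least 10 CpGs were compared between the lines. Of 54104 such shores, 83.5% had the lower mean in OCI-AML3, with a median difference of -6.30 points and quartiles of -13.7 and -1.66 points. A decrease of at least 20 points was seen in 7106 shores (13.1%) and an increase of that size in 821 (1.52%). Of 39254 shelves, 4706 (11.99%) decreased and 273 (0.695%) increased by at least 20 points, with a median of -5.70 points. Of 2 kb tiles of all autosomes with at least 10 CpGs, 80.3% had the lower mean in OCI-AML3, with a median difference of -5.97 points. Among these tiles 16.0% decreased and 2.24% increased by at least 20 points. Large changes were thus less frequent among shores and shelves than among tiles of similar length in both directions, although no test over samples was possible. The tiles were not matched to them in number or density of CpGs, and sparser CpGs differed more. Beyond 4 kb the difference was -10.99 points at 0 to 4 others within 500 bp and -6.42 at 20 to 29, where shore CpGs had -8.25. In the histogram of differences the shelves had the narrowest distribution.

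Shores of promoter islands decreased by at least 20 points in 15.4% of 22881 cases, those of gene body islands in 10.2% of 18165, and those of intergenic islands in 13.2% of 13058. In shelves the order was another: 10.4% around promoter islands, 11.1% around gene body islands and 16.2% around intergenic islands. The shores that decreased by at least 20 points had a median GC content of 46.7%, those within 5 points 48.4% and those that increased 45.4%. On average 21.6% of the CpGs of a decreased shore lay between A or T, against 18.8% in shores within 5 points and 21.7% in shores that increased. Shores that increased had a mean level of only 41.6% in AML5, whereas those that decreased had 75.2%. This difference in AML5 level is in part fixed by the choice on the same values.

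The shores of 1 island were compared with each other. In 25107 islands with both shores measured, the 2 differences correlated with a Pearson r of 0.27, given as a description because neighbouring shores share libraries and depth. At least 1 shore decreased by 20 points at 5757 islands and both did at 822 (14.3%). A shore and the shelf next to it correlated with r = 0.37 over 38218 sides, and a shore and its island with r = 0.16 over 53869 sides. Of 7082 decreased shores with a measured island, 3299 (46.6%) flanked an island that differed by less than 5 points and 883 (12.5%) flanked one that decreased by at least 20 points. The same shares over all 53869 sides were not counted, so neither can be read as particular to decreased shores. Of all called shore CpGs 81.2% were lower in OCI-AML3, which the counts within shores below are read against. In 26455 shores with at least 5 CpGs called by Fisher's test, all called CpGs were lower in 12259 (46.3%), all were higher in 1032 (3.90%), and both directions were present in 13164 (49.8%).

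Islands whose own state differed between the lines are given separately. At 200 islands the level was below 0.2 in OCI-AML3 and above 0.66 in AML5, and of their 366 shores 131 (35.8%) decreased by at least 20 points. The difference fell off with distance, from -39.3 points in the first 250 bp to -9.87 points at 1750 to 2000 bp. Of their 276 shelves 26 (9.42%) decreased by that much, against 11.99% of all shelves. The opposite state, above 0.66 in OCI-AML3 and below 0.2 in AML5, was found at 63 islands on 17 chromosomes. Their first 250 bp were higher in OCI-AML3, at 68.4% against 49.7%, but from 250 bp outward the flanks were lower. Their 72 shelves averaged 62.5% in OCI-AML3 against 88.7% in AML5, 46 (63.9%) decreased by at least 20 points and none increased by that much. Around promoter islands of this kind 35 of 46 shelves decreased by at least 20 points. CpGs beyond 4 kb in the same 1 Mb segments also differed, with a median of -13.8 points over these islands against -6.84 points over islands unmethylated in both lines, and 31 of the 63 lay in segments below -15 points.

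The edge of the unmethylated region could be placed in each line at islands below 0.2 in both. It was set at the centre of the first run of 5 CpGs, going outward from the island, whose mean level was at least 0.5, among the shore and shelf CpGs of that side. Of 19555 sides with at least 10 CpGs, 19095 reached this level in both lines, 235 in AML5 alone, 33 in OCI-AML3 alone and 192 in neither. The median distance was 405 bp in OCI-AML3 (quartiles 197 and 769 bp) and 304 bp in AML5 (156 and 583 bp). The edge fell on the same CpG in both lines at 8832 sides (46.3%). It lay more than 200 bp farther out in OCI-AML3 at 4609 sides (24.1%) and more than 200 bp closer in at 678 (3.55%). Shifts of more than 1000 bp were found at 709 sides outward and 103 inward.

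The edge differed most often on the downstream side of promoter islands. This is the side in the direction of transcription, and it need not lie within the gene. The edge there lay more than 200 bp farther out in OCI-AML3 at 1990 of 6267 sides (31.8%) and closer in at 322 (5.14%). On the upstream side the counts were 1021 of 6362 (16.0%) and 135 (2.12%). Islands in gene bodies had 20.4% of edges farther out and intergenic islands 18.6%. Mean levels followed the same order. Upstream shores of these promoter islands had means of 69.6% in OCI-AML3 and 78.2% in AML5, and 11.8% of 6262 decreased by at least 20 points. Downstream shores had 56.0% and 66.2%, and 18.7% of 6277 decreased. In shelves the order was reversed, at -7.78 points upstream and -6.05 points downstream. Where the level is lower throughout, a fixed level of 0.5 is reached farther out for that reason alone, and its part in these counts was not tested. At the 10671 sides whose shelf stood above 0.8 in both lines, a subset chosen after seeing the data, the edge lay farther out at 2632 (24.7%) and closer in at 322 (3.02%).

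The difference in shelves followed that of the surrounding segment more closely than the difference in shores did. Autosomes were cut into 1 Mb segments and classed by the difference of their CpGs beyond 4 kb, which are not members. In segments below -20 points, where those CpGs differed by -25.7 points, shelves differed by -19.2 and shores by -13.9 points. In segments at or above 0, where they differed by 7.35 points, shelves differed by 0.741 and shores by -0.775 points. Over 1746 segments with at least 100 CpGs of each kind, the mean was lower in OCI-AML3 in 1654 for shores and in 1684 for shelves. For CpGs beyond 4 kb in the same segments it was lower in 1662, which is near both counts. The differences correlated with those beyond 4 kb with a Pearson r of 0.49 for shores and 0.73 for shelves, as a description across segments of the same 2 libraries. Among chromosomes the shore difference ran from -6.25 points on chromosome 21 to -9.39 on chromosome 22, and the shelf difference from -5.83 to -8.90 on the same chromosomes. All 22 autosomes were lower in OCI-AML3 in both zones.

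The shores with the largest decreases were, by construction, those that were methylated in AML5 and nearly free of methylation in OCI-AML3, and their values are given as a description. The downstream shore of the HOXB4 island from 46653743 to 46654524 on chromosome 17 averaged 2.90% ± 6.67 in OCI-AML3 against 94.8% ± 6.89 in AML5 (SD over its 39 CpGs). Its window shown above lies within HOXB3. The island itself was at 0.69% and 5.81%, so the decrease began at its edge, and the shelf beyond continued it at 5.8% and 94.9%. In AML5 the level of 0.5 was reached 67 bp from the edge, and in OCI-AML3 it was not reached within the shore and shelf. On the upstream side of the island from 27212043 to 27214479 on chromosome 7, the 53 shore CpGs had means of 0.67% ± 2.13 and 89.8% ± 10.97. This island was assigned to HOXA9 by the first base of its gene record, at 27214799. The window of this shore shown above lies within HOXA10. The island assigned to HOXA10, by a first base at 27219880, had 0.85% and 91.2% over the 38 CpGs of its downstream shore.

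At RBM15, an RNA-binding protein gene rearranged in a form of megakaryoblastic leukemia, the downstream shore stood at 2.60% against 89.4% over 58 CpGs. MRC2, on the same side, had 6.63% and 93.4% over 43 CpGs, and the level of 0.5 was reached 2298 bp from the island in OCI-AML3 and 85 bp in AML5. The upstream shore of TRAM1, which encodes a protein of the endoplasmic reticulum translocation channel, had 4.66% and 91.1% over 20 CpGs. The edge lay at 169 bp in AML5 and at 3373 bp in OCI-AML3. In these shores the island was unmethylated in both lines and the flank alone differed in state between them. A different case was COX8C, a cytochrome c oxidase subunit gene, where the island was methylated in both lines, at 88.0% and 94.4%, and the downstream shore stood at 0.99% and 93.6% over 27 CpGs. At DDX19B, an RNA helicase gene, B3GNT2, a glycosyltransferase gene, and FAM174C the upstream shores had 1.48%, 5.83% and 6.42% in OCI-AML3 and 94.0%, 91.4% and 91.9% in AML5, and the islands themselves were at 22.4% to 31.4% in AML5 and below 1% in OCI-AML3.

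The largest increases were smaller than the largest decreases. At ZNRF1 the downstream shore averaged 88.9% ± 10.8 in OCI-AML3 against 16.8% ± 25.03 in AML5 over 22 CpGs. The level of 0.5 was reached 213 bp from the island in OCI-AML3 and 1786 bp in AML5. ZYX, which encodes the focal adhesion protein zyxin, had 89.7% and 24.6% over 23 CpGs downstream of its island. The downstream shore of APLP2, an amyloid precursor-like gene, had 66.4% and 3.92% over 30 CpGs, and that of IQGAP2, a scaffold protein gene, 73.8% and 12.3% over 13 CpGs. The edge lay closer to the island in OCI-AML3 at these 3 shores too: 407 bp out against 1139 bp at ZYX, 569 against 2457 bp at APLP2 and 274 against 2328 bp at IQGAP2. DLX1 and NKX2-2, homeobox genes of the nervous system and other tissues, had downstream shores at 90.1% and 77.4% in OCI-AML3 against 24.4% and 8.62% in AML5. H2BC3, a histone H2B gene, differed in its island too, at 95.5% and 7.86%, with its downstream shore at 94.5% and 28.4%. The other increases of the 10 largest were GALNTL6 (93.1% and 28.9%), DMRT3 (86.8% and 23.3%) and ADAMTS1 (82.3% and 21.8%).

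Among shelves of promoter islands the largest decreases were at RHOF, a small GTPase gene, with 0.14% in OCI-AML3 against 94.9% in AML5 over 21 CpGs, at BAHCC1 with 1.24% and 94.98% over 11 CpGs, and at PTBP1, a splicing regulator gene, with 0.21% and 93.6% over 11 CpGs. All 3 were on the downstream side. The largest increases were at LRRC4 (88.5% and 35.0%), DLX1 (79.2% and 25.9%) and PIGX (80.9% and 32.7%). The DLX1 shelf continued the change of its shore.

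The 12 genes that the study chose as a hypomethylation signature of DNMT3A-mutant AML, in part on these same libraries, are not independent evidence of direction. Of them 11 have an island within 2 kb of the TSS, RNASE6 being the exception. Of their 21 shores, 9 (42.9%) decreased by at least 20 points and none increased by that much, with a median of -16.1 points, against 15.4% and -7.09 points over all 22881 shores of promoter islands. The shores with the largest decreases were those downstream of PLD6, at 16.1% and 78.0% over 48 CpGs, and upstream of HOXB2, a homeobox gene, at 29.6% and 88.1% over 22 CpGs. In the PLD6 shore 42 of the 48 CpGs were called lower and none higher, while the shore on the other side of the same island had 91.4% and 93.0%. The downstream shore of TRIP6, an adaptor protein gene, had 43.02% and 94.7% over 48 CpGs. The downstream shore of MEIS1, the HOX cofactor, had 15.8% and 58.6% over 32 CpGs, and its upstream shore 45.8% and 64.2% over 15 CpGs. HOXA11 had 1.7% and 39.1% over the 22 CpGs of its downstream shore, and NRG4, a growth factor gene, 24.9% and 40.997% over 22 CpGs.

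IRF8 showed its change farther out. Its downstream shore averaged 0.1% in OCI-AML3 against 26.2% in AML5 over 27 CpGs, of which 8 were called, and its downstream shelf had 1.0% and 82.5% over 35 CpGs, of which 32 were called lower. In AML5 the level of 0.5 was reached 1639 bp from the island, and in OCI-AML3 not within the shelf. Both shores of CAVIN3, a caveola component, were lower in OCI-AML3. The upstream shore had 56.7% against 87.2% in AML5, with only 11.7 reads per CpG in AML5, and the downstream shore 64.3% against 90.4%. The shores of ADAMTS5, KLF2 and CADM1 differed by no more than 10.7 points, and the downstream shelf of CADM1 was higher in OCI-AML3, at 86.7% against 48.5%.

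The HOX genes, which set position along the body axis and in blood regulate stem and progenitor cells, were split by cluster. Their 75 shores had a median difference of -3.04 points, and 15 (20%) decreased and 9 (12%) increased by at least 20 points, where all shores of promoter islands had 15.4% and 1.58%. Among 21 HOXA shores 9 decreased and none increased by at least 20 points. The decreases lay at islands assigned to HOXA9, HOXA10, HOXA11 and HOXA13, and at 1 assigned to both HOXA3 and HOXA6. That island lies between those of HOXA5 and HOXA7, and was tied to HOXA3 by the outermost base of its gene record. The shores of HOXA4, HOXA5 and HOXA7 were methylated in both lines, at 75.4% to 96.6%. Among 18 HOXB shores 5 decreased and 2 increased by that much, and the decreases included both shores of HOXB5, at 29.3% and 25.5% in OCI-AML3 against 97.0% and 95.3% in AML5. Among 18 HOXC shores none decreased and 4 increased by at least 20 points, and among 18 HOXD shores 1 decreased and 3 increased. Mean levels were 55.3% in OCI-AML3 and 75.3% in AML5 over HOXA shores, and 36.7% and 33.0% over HOXC shores. The shores of these clusters lie close together, so neighbouring values are not independent.

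The other lists are read against the same share of all promoter shores, 15.4% decreased and 1.58% increased by at least 20 points. The 56 shores of blood transcription factors had a median of -2.84 points, with 5 (8.93%) decreased and 2 (3.57%) increased by at least 20 points. The downstream shore of CEBPA, a factor required for granulocytes, stood at 1.67% in OCI-AML3 against 48.4% in AML5 over 35 CpGs. GFI1 and TAL1, both regulators of blood progenitors, went the other way downstream, with 76.7% against 24.1% over 23 CpGs and 93.8% against 49.9% over 55 CpGs. Of 44 shores of tumour suppressor genes known to be methylated in blood cancers, 5 (11.4%) decreased and none increased by at least 20 points (median -5.04 points). They included the downstream shore of DAPK1, a cell death kinase gene, at 10.96% and 89.1%.

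Of 35 shores at genes of the DNA methylation machinery, 4 (11.4%) decreased and 2 (5.71%) increased by at least 20 points, with a median of -5.40 points. Downstream of its island, TET3, a gene for a 5-methylcytosine dioxygenase, had a shore at 31.2% and 68.7% over 51 CpGs, and its paralog TET2 one at 26.1% and 1.9% over 13 CpGs. Housekeeping genes had 7 of 52 shores (13.5%) decreased and none increased by that much, with a median of -7.25 points, and 50 of these shores flanked islands unmethylated in both lines. Downstream of EEF1A1, a translation elongation factor gene, the shore had 4.37% and 69.9% over 19 CpGs, while its upstream shore had 95.3% and 95.4% over 24 CpGs. The upstream shore of TBP, the TATA-binding protein gene, had 25.9% and 68.3% over 33 CpGs. The shares of decreased shores in these 4 lists lay below that of all promoter shores, and the differences between these shares were not tested.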

How the data were processed

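Each line was sequenced as 1 paired-end whole-genome bisulfite library from sheared DNA spiked with unmethylated lambda DNA. The authors aligned reads to hg19 with Bismark on Bowtie (version 0.12.8 in the submitters' processing notes) and deposited counts of methylated and unmethylated calls for each CpG, with both strands added together and with no normalization. Whether duplicate reads were removed is not given in the sources used here. The tables listed 28217448 CpGs each, with 902802339 calls in OCI-AML3 and 894828667 in AML5 and autosomal medians of 28 and 31 calls per CpG. The columns carry no names: column 3 was taken as methylated because it held 0.168% and 0.101% of mitochondrial calls. All 26752702 autosomal positions fell on a CG of GRCh37.

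Levels were averaged over CpGs with more than 5 reads in both lines. The calls of single CpGs were tested by Fisher's exact test, two-sided, adjusted by Benjamini-Hochberg. Shores and shelves with at least 10 CpGs were compared by a difference of 20 points, with no test, because 1 library per line gives no measure of variation between cultures. Promoters were taken from GENCODE gene records lifted to GRCh37, using the first base of each protein-coding gene. Starts of other transcripts were not used, so an island named for a gene can lie far from them. Intervals are Wilson 95% intervals. A C-to-T variant of a line at a CpG reads as unmethylated and was not looked for. The scripts were tested on simulated data and used Python 3.11.15, numpy 2.4.6, scipy 1.17.1, numba 0.67.0, pandas 2.3.3, pysam 0.24.0 and matplotlib 3.10.9.

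Named shores were the 10 largest decreases and 10 largest increases at promoter islands, 1 per gene, with at least 10 reads per CpG in both lines, and the 3 largest of each kind among shelves. Also named were the signature genes and the largest changes of each gene list. Not every gene that meets this rule is reported here. Of these decreases, 1 was assigned to an unnamed gene that shares its island with HOXA10. The shores and shelves and all lists were chosen with earlier results of these data known. The HOX clusters were split, and HOXB5, HOXA13 and others outside the rule named, after their values were seen. Alternatives covered the minimum reads, density, joining gap, averaging, threshold, chromosomes and edge definition.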

Additional observations from a re-analysis of the deposited data

How the results depend on the processing

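No paired analysis was possible because each line was sequenced as 1 library. Neither the shore nor the shelf mean difference changed sign under any alternative run. Counts of CpGs, shores and edges lower or farther out in OCI-AML3 stayed above the opposite counts in each run. The shore difference of -8.21 points was -8.15 at CpGs with at least 10 reads, -7.92 as a share of calls, -8.13 and -7.89 with islands of more than 30 and more than 50 others within 500 bp, -8.23 with dense CpGs joined up to 500 bp apart and also without chromosome 8, and -8.06 where the depths of the lines were within 2 times of each other. The shelf difference of -7.92 points was -7.83, -7.75, -7.97 and -7.77 under the first 4 of these and -7.77 under the last. These shifts exceeded the counting intervals, which are narrow at this number of calls. The number of shores decreased by at least 20 points (7106) became 19307 at 10 points and 2668 at 30 points, and the number increased (821) became 2019 and 333, and 482 with at least 20 CpGs per shore. Restricting edges to sides with a shelf above 0.8 in both lines, added after seeing the data, left 2632 farther out and 322 closer in among fewer sides. The edge counts stayed within 1.5 times with levels of 0.3 and 0.7, windows of 10 CpGs and at least 10 reads, as did the counts of CpGs called by Fisher's test under all 5 alternatives each. Calls and means differed with depth, and from CpGs with 6 to 9 reads to those with at least 30, shore CpGs called lower rose from 7.46% to 18.6%, and the mean shore difference went from -9.58 to -7.87 points.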
